A study of Mus musculus with 24 samples.

Results

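Hepatocytes from old mice on a high-fat diet were compared with those from mice kept on normal diet, with no drug in either group. The comparison held 15 of the 24 libraries of the study, 7 labelled high-fat diet (HFD+veh) and 8 labelled normal diet (ND+veh), and they were chosen by their labels and not by any measured value. All animals were male C57BL/6J mice, and both groups had received vehicle since 4 months of age. At 18 months HFD+veh animals changed to chow in which fat supplied 60% of the calories and ate it for 9 weeks. ND+veh animals stayed on their diet, in which by the study's methods fat supplied a much smaller share of the calories. The high-fat chow replaces other nutrients, carbohydrate among them, so the groups differed in more than fat. Hepatocytes were isolated by a 2-step perfusion of the liver, 1 library of polyA RNA was made per animal, and all libraries carry the same batch label. The other 9 libraries came from mice given the high-fat diet with encapsulated rapamycin at 42 ppm (HFD+eRapa), and they entered the fit as a group of their own and in no comparison. Depth was 17.7 to 25.9 M counts per library (M, units of 1000000).

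Hepatocytes take up fatty acids from blood, make them from carbohydrate, burn them, store them in lipid droplets or export them in lipoproteins. They also make glucose, urea, bile acids and most plasma proteins, and they divide these tasks along the lobule, with amino acid breakdown and urea synthesis near the portal vein and drug metabolism near the central vein under the control of Wnt signalling. Pulses of growth hormone in males set a further group of liver genes apart between the sexes. A high-fat diet lowers the need for fatty acid synthesis, favours fat storage, and over time draws immune cells into the liver.

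Levels are given as CPM, counts per M counts of the library after scaling. The log2 fold change is that of HFD+veh over ND+veh, and SE is its standard error. A gene is said to have risen or fallen where its adjusted p was under 0.05 in edgeR's quasi-likelihood test, with the Benjamini-Hochberg adjustment over all 13847 genes tested. Of these, 25.9% were called, 16.0% higher and 9.86% lower on the high-fat diet, and 11.4% were called with an absolute log2 fold change of 1 or more. The median log2 fold change of all genes was 0.05. In 2.44% of genes the levels of the 7 and the 8 animals were fully apart. Lists of genes are described by counts to be read against these shares.

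The promoters below come from 3 groups of genes described further on, and each holds a short motif that was searched for in its group. Each is the 250 bases before the RefSeq start of the gene on GRCm38.p6, written 5′ to 3′ along the gene, with the motif in capitals. The first pair, from genes that interferons switch on, holds the interferon-stimulated response element (GAAA, any 2 bases, then GAAA, on either strand), overlapping copies being merged.
Isg15 (chr4:156200819-156201068, minus strand): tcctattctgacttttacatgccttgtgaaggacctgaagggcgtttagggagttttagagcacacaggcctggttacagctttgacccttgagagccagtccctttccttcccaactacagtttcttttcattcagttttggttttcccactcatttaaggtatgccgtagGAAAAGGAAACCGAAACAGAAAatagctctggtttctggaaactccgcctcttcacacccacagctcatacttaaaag
Ifit1 (chr19:34640639-34640888, plus strand): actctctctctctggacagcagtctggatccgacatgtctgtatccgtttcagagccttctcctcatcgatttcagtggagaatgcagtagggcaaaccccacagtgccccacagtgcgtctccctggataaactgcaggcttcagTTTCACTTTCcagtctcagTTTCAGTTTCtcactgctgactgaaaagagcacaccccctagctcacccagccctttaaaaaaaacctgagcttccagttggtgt
The second pair, from genes of protein folding in the endoplasmic reticulum (ER), holds the ER stress element (CCAAT, any 9 bases, then CCACG, on either strand).
Creld2 (chr15:88819396-88819645, plus strand): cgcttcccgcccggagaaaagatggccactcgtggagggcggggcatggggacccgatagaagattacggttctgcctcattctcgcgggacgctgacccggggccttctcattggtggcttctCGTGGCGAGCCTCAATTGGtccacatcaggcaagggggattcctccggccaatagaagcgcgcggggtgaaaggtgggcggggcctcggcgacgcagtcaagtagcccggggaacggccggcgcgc
Syvn1 (chr19:6046326-6046575, plus strand): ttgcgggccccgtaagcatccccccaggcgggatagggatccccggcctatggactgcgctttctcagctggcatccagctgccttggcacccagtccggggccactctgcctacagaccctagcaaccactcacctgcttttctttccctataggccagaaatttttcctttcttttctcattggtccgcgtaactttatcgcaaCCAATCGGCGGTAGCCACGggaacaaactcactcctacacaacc
The last, from a gene of the zone around the central vein, holds the TCF/LEF motif used by Wnt signalling (CTTTGAT on either strand).
Lect2 (chr13:56548539-56548788, minus strand): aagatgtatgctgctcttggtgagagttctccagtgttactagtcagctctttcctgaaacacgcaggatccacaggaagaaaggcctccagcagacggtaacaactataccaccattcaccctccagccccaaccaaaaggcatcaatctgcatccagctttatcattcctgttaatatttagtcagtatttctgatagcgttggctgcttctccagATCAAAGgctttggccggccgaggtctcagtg

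Of the interferon-stimulated genes with a window, 26 of 44 (59.09%) held the response element in the window of 250 bases before and 50 after the start, against 3.993% of all 27025 genes with a window. Among the called members with a window 23 of 39 held it. The ER stress element stood in 9 of 28 genes of ER chaperones and the unfolded protein response (32.14%), against 0.1369% of all genes. The TCF/LEF motif was less concentrated. It stood in 3 of 18 pericentral and 2 of 17 periportal genes (16.67% and 11.76%), against 4.292% of all genes. Of the 9 ER genes with the element only Creld2 and Syvn1 were called, out of 11 called ER genes with a window. The element was thus held mostly by members that were not called. The response element also stood in 5 of 19 genes of MHC class I presentation (26.32%). The heat shock element (GAA, any 2 bases, TTC, any 2 bases, then GAA) stood in 4 of 16 heat shock chaperones (25%), against 0.6623% of all genes. Only 1 of the 7 called chaperones with a window held it. Of clock genes 4 of 15 held the E-box (CACGTG, 26.67%), against 8.093% of all genes and 11.62% of those tested. The D-box (TTATG, any base, then AA) stood in 2 of 15 (13.33%), against 3.993% of all genes and 2.894% of those tested. The gamma-activated sequence (TTC, any 3 bases, then GAA) stood in 2 of 21 male-biased genes and 5 of 23 genes of the growth hormone and IGF system (9.524% and 21.74%), against 9.554% of all genes. Of their called members with a window, 0 of 9 and 1 of 8 held it. The direct repeat of nuclear receptors (AGG, any base, CA, any base, then AGG, any base, CA) stood in 0 of 14 targets of PPAR alpha and 0 of 23 genes of fatty acid oxidation, against 0.4514% of all genes. All were searched on either strand. A match of letters does not show that a factor bound there.

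The libraries held RNA of other cells beside that of hepatocytes, and unequally. The summed level of 15 hepatocyte markers was 72588 to 177774 CPM in ND+veh and 112143 to 191835 CPM in HFD+veh, and the ranges overlapped. Kupffer cells are the resident macrophages of the liver, and their 15 markers summed to 382 to 1913 CPM in ND+veh and 379 to 6188 CPM in HFD+veh. Markers of recruited and lipid-associated macrophages ran at 89.9 to 238 CPM in ND+veh and 52.3 to 1857 CPM in HFD+veh, those of neutrophils at 1.53 to 28.2 CPM in ND+veh and 13.1 to 141 CPM in HFD+veh, those of B and plasma cells at 4.60 to 36.7 CPM in ND+veh and 4.70 to 252 CPM in HFD+veh, and those of T and NK cells at 0.884 to 12.6 CPM in ND+veh and 0.783 to 120.2 CPM in HFD+veh. HFD+veh replicates 3 to 6 lay above all ND+veh animals in each of these 5 sums, and for neutrophils replicates 1 and 7 did so too. The immune marker score (the mean z-score of 48 tested immune markers) was 1.10 to 1.75 in replicates 3 to 6, 0.60 in replicate 7 and -0.53 and -0.52 in replicates 1 and 2, against -1.07 to 0.53 in ND+veh. In ND+veh 5 of 14 neutrophil markers had a median of 0. Sinusoidal endothelial markers ran at 146 to 781 CPM in ND+veh and 206 to 1200.5 CPM in HFD+veh with 1 of 16 called higher, those of stellate cells and fibroblasts at 50.3 to 351 CPM in ND+veh and 50.3 to 691 CPM in HFD+veh with 3 of 16 higher, and those of cholangiocytes, the bile duct cells, at 290.02 to 739.5 CPM in ND+veh and 402 to 983 CPM in HFD+veh with 4 of 7 higher. Red cell markers summed to 29.4 to 74.5 CPM in ND+veh and 59.2 to 667 CPM in HFD+veh. Of 5 tested, 4 were called higher, with a median log2 fold change of 5.34, and in ND+veh 4 of 9 markers had a median of 0. Their sum was highest in HFD+veh replicates 6, 3 and 4, at 667, 167 and 162 CPM. ND+veh replicate 4 stood apart in its group, with the lowest hepatocyte marker sum of all 15 animals. In bulk RNA, fewer cells of a type and less RNA per cell cannot be told apart.

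**Figure D1:**
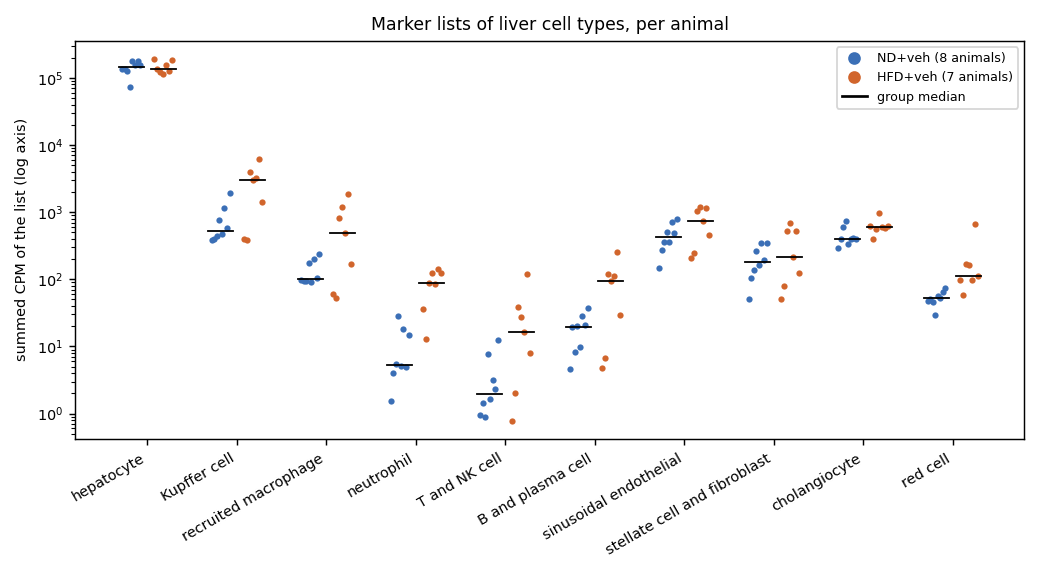
Summed CPM (log axis) of marker lists of 10 cell types in the liver, with 1 point per animal (blue, ND+veh, 8 animals; orange, HFD+veh, 7 animals) and a black line at each group's median. Hepatocyte markers overlap, while HFD+veh replicates 3 to 6 lie above all 8 ND+veh animals for Kupffer cells, recruited macrophages, T and NK cells and B cells.

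Each count of a gene list below is followed by the counts in 2 added fits, one that took the immune marker score as a covariate, which called 4.29% of genes higher and 4.93% lower, and one without HFD+veh replicate 6, the library with the highest score, which called 7.10% higher and 8.04% lower. For lists of immune genes the covariate is in part the same measure as the list. The part of the other cells' RNA in the results was not tested beyond these fits.

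**Figure D2:**
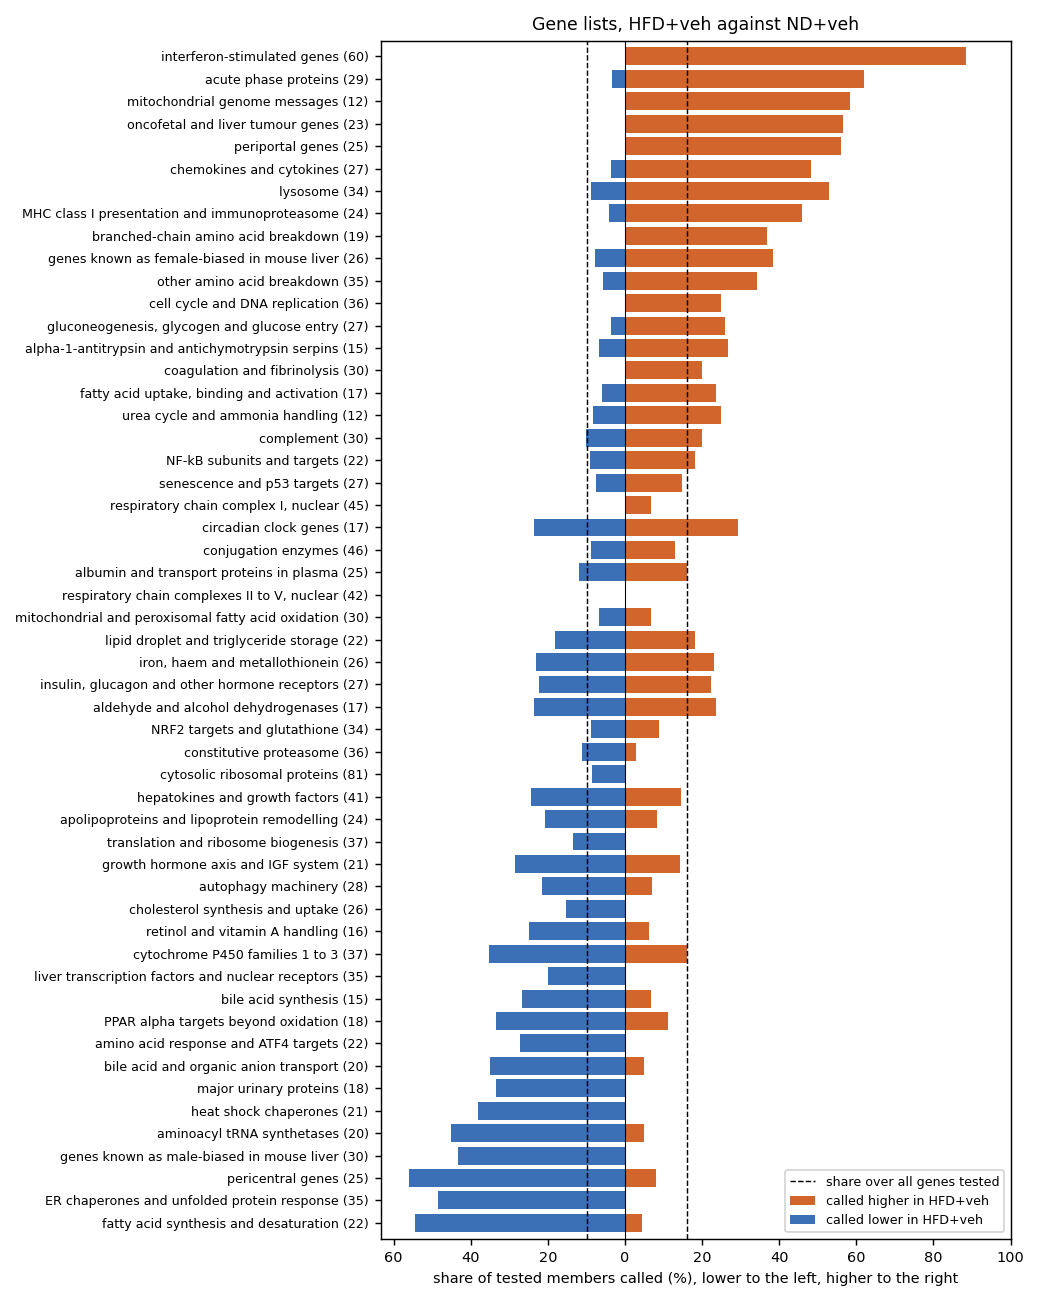
Share of the tested members of each gene list called higher (orange, to the right) or lower (blue, to the left) on the high-fat diet, with the number tested in brackets. Dashed lines mark the shares over all genes, 16.0% and 9.86%. Interferon-stimulated genes stand at one end, and fatty acid synthesis, ER chaperones and pericentral genes at the other.

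Of called genes with a mean log2 CPM of at least 3 and no overlap of the groups, predicted gene names left aside, the 12 largest falls and the 12 largest rises are given first. Slco1a1 (ENSMUSG00000041698.11, chromosome 6, 141907282 to 141946962, GRCm38 as for all positions below), an uptake carrier for bile acids and steroid conjugates, ran at 95.7 to 565 CPM in ND+veh (median 352) and 1.98 to 26.4 CPM in HFD+veh (median 4.43). No HFD+veh animal reached the lowest ND+veh animal, and the fall was 42.5-fold (log2 fold change -5.41, SE 0.58, adjusted p = 2.52e-06). Avpr1a (ENSMUSG00000020123.6, chromosome 10, 122448499 to 122453452), the vasopressin receptor of hepatocytes, ran at 30.5 to 75.8 CPM in ND+veh (median 51.7) and 1.04 to 7.58 CPM in HFD+veh (median 2.40), a log2 fold change of -4.19. Igfbp2, a carrier of insulin-like growth factors in plasma, fell with a log2 fold change of -3.03 and Csad, an enzyme of taurine synthesis, of -2.54. Others whose animals did not overlap were Socs2, a feedback inhibitor of growth hormone signalling (-2.32), Acot1, a thioesterase of fatty acyl-CoA (-2.32), Notum, a secreted inhibitor of Wnt (-2.20), Npr2, a natriuretic peptide receptor (-2.16), Rdh9, a retinol dehydrogenase (-2.12), Irs2, the adaptor of the insulin receptor (-2.08), Unc13b (-2.04) and Gulo, the last enzyme of vitamin C synthesis (-2.01). All 12 were also called in both added fits.

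Among the rises, Aldh1b1 (ENSMUSG00000035561.5, chromosome 4, 45799022 to 45804604), an aldehyde dehydrogenase of mitochondria, ran at 1.14 to 25.4 CPM in ND+veh (median 14.6) and 144 to 387 CPM in HFD+veh (median 193). Each HFD+veh animal lay above each ND+veh animal (log2 fold change 4.26, SE 0.47, adjusted p = 4.61e-06). Raet1d, a ligand of the NK cell receptor NKG2D, rose from a median of 3.07 to 30.4 CPM (log2 fold change 3.29) and Cryl1, a crystallin-like dehydrogenase of sugar acids, from a median of 7.88 to 43.6 CPM (2.59). Sulf2, which trims heparan sulfate, rose by 2.53, Sds, the serine dehydratase, by 2.44, Ctsc, a lysosomal peptidase, by 2.14, Upp2, a uridine phosphorylase, by 2.08, Olfm3 by 2.03, Bdh2, a cytosolic dehydrogenase, by 1.98, Ctcflos by 1.86 and Zap70 by 1.83. Cyp2b9, a cytochrome P450 known as higher in female liver, rose by 2.19 (adjusted p = 0.0371), a call lost with the covariate (adjusted p = 0.229) and without replicate 6 (adjusted p = 0.0716). The other 11 were called in both added fits.

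**Figure D3:**
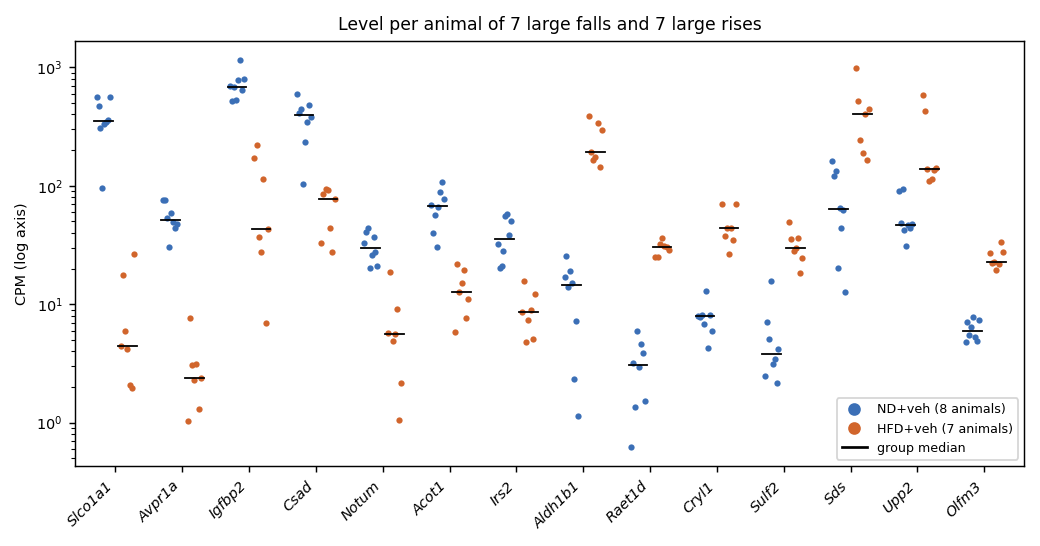
CPM per animal (log axis) of 7 of the genes with large falls and 7 of those with large rises, with 1 point per animal (blue, ND+veh; orange, HFD+veh) and a black line at each group's median. These genes were chosen because the groups do not overlap, so the separation itself is a consequence of the choice. Slco1a1 runs from 95.7 CPM upward in ND+veh and stays at or under 26.4 CPM in HFD+veh.

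Genes of the 2 ends of the lobule moved in opposite directions. Of 25 pericentral genes tested, 14 fell and 2 rose, with a median log2 fold change of -0.83, and of 25 periportal genes 14 rose and 11 did not pass the test, with a median of 0.77. In the added fits the counts were 1 higher and 10 lower pericentral genes with the covariate and 2 and 11 without replicate 6, and 15 and 14 higher periportal genes, with 0 lower. Cyp2e1, the P450 that oxidises ethanol and many drugs, ran at 2968 to 6627 CPM in ND+veh (median 4503) and 459 to 3584 CPM in HFD+veh (median 935) (log2 fold change -1.93, SE 0.32, adjusted p = 0.000360). Cyp1a2, which oxidises caffeine, fell from a median of 317 to 62.8 CPM (log2 fold change -1.72), and Tbx3, a transcription factor of pericentral hepatocytes, from a median of 29.4 to 4.68 CPM (-2.28). Axin2, a target of Wnt signalling, fell with a log2 fold change of -1.77, and Lgr5, another, of -1.52. The Lgr5 call was lost in both added fits (adjusted p = 0.219 and 0.0558). Glul, the glutamine synthetase of the innermost pericentral layer, was not called (log2 fold change -0.45, adjusted p = 0.402).

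On the periportal side Aldh1b1 and Sds led. Cyp2f2, a P450 of periportal hepatocytes, ran at 212 to 939.6 CPM in ND+veh (median 528) and 960.4 to 3063 CPM in HFD+veh (median 1379) without overlap (log2 fold change 1.61, SE 0.27, adjusted p = 0.000360). Hsd17b13, a protein of lipid droplets, rose from a median of 357 to 966 CPM (log2 fold change 1.30), also without overlap. Hal, which starts histidine breakdown, rose by 1.35 and Gls2, the liver glutaminase, by 1.21. Axin2, Lgr5, Hsd17b13, Hal, Bhmt and Syvn1 were named after their values were seen.

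**Figure D4:**
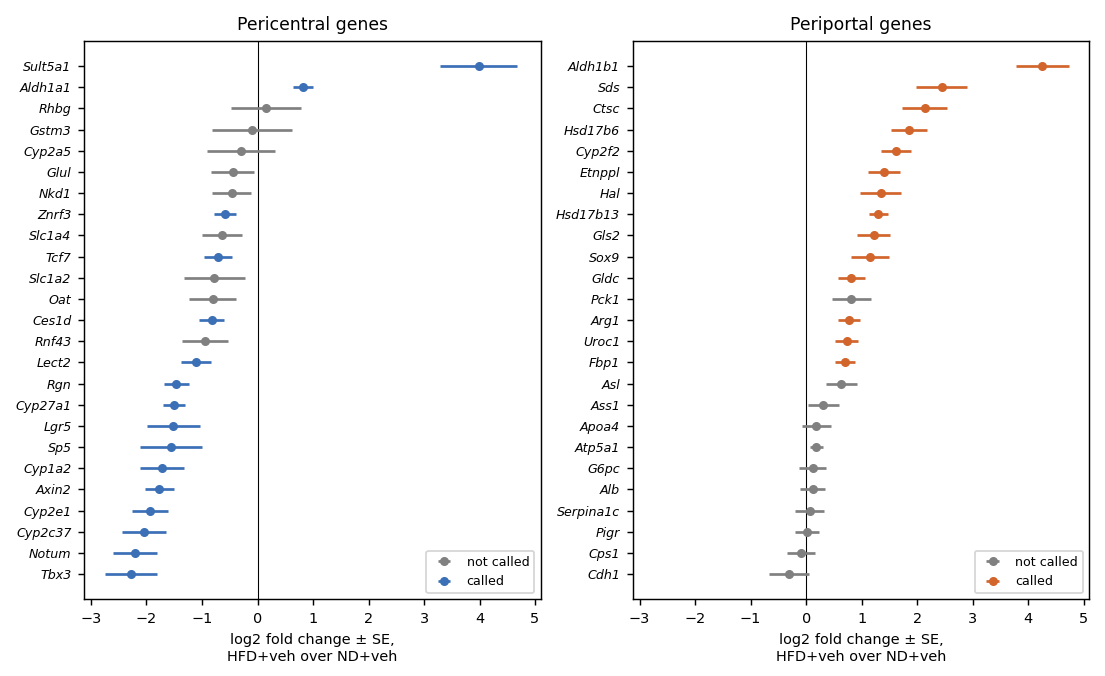
Log2 fold change of HFD+veh over ND+veh, with bars of 1 SE, of 25 pericentral genes (left) and 25 periportal genes (right), with called genes in colour and others in grey. Most pericentral genes lie below 0, down to -2.28 for Tbx3, and most periportal genes above 0, up to 4.26 for Aldh1b1.

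Fatty acid synthesis fell as a group, with 12 of 22 genes lower and 1 higher (1 higher and 3 lower with the covariate, 1 and 9 without replicate 6). Scd1, the desaturase that makes oleic acid, ran at 4868 to 30212 CPM in ND+veh (median 24117) and 2968 to 9332 CPM in HFD+veh (median 7634) (log2 fold change -1.65, SE 0.30, adjusted p = 0.000809). Elovl3, a fatty acid elongase, fell from a median of 382 to 33.7 CPM (log2 fold change -2.54) and Fasn, the fatty acid synthase, from a median of 2036 to 742 CPM (-1.31). With the covariate Fasn was lost (adjusted p = 0.175) and Scd1 and Elovl3 were kept. The single rise, Scd2 (2.17), was lost with the covariate (adjusted p = 0.895). Srebf1, the transcription factor of this pathway, was not called (log2 fold change 0.22, adjusted p = 0.740).

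Genes of fat storage and uptake were called in both directions. In the list of lipid droplet and triglyceride storage 4 of 22 genes rose and 4 fell (2 higher and 1 lower with the covariate, 4 and 3 without replicate 6). This was 18.2% each way, against 16.0% of all genes higher and 9.86% lower. The falls are not named here. Mogat1, which makes diacylglycerol, rose by 1.68, Plin4, a droplet coat protein, by 1.10 and Cidea, which fuses droplets, by 1.98, all at medians of at most 10.5 CPM and all lost with the covariate (adjusted p = 0.0961, 0.222 and 0.164). Plin2, the main droplet coat protein of hepatocytes, had medians of 521 and 665 CPM and was not called (log2 fold change 0.18, adjusted p = 0.420). Of 17 genes of fatty acid uptake 4 rose and 1 fell (1 higher and 0 lower with the covariate, 2 and 1 without replicate 6). Cd36, the fatty acid translocase, ran at 28.9 to 199 CPM in ND+veh (median 123) and 175 to 1228 CPM in HFD+veh (median 391) (log2 fold change 1.97, SE 0.43, adjusted p = 0.00304). Macrophages and endothelial cells also carry Cd36, Lpl and Fabp4, and the call of Cd36 was lost with the covariate (adjusted p = 0.0876), as was that of Lpl, the lipoprotein lipase (log2 fold change 2.52, adjusted p = 0.239), while Fabp4 (3.14) was kept.

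Fatty acid oxidation changed little. In mitochondria and peroxisomes 2 of 30 genes rose and 2 fell (2 higher and 2 lower with the covariate, 2 and 2 without replicate 6). Cpt1a, the gate of mitochondrial oxidation, was not called (log2 fold change 0.20, adjusted p = 0.368). Crat, a carnitine acetyltransferase, fell with a log2 fold change of -0.72 and Eci2, an enoyl-CoA isomerase, of -0.59. In ketone body synthesis edgeR called 0 of 5 genes, with 2 at an unadjusted p under 0.05, and DESeq2, voom and both added fits called 0. Targets of the nuclear receptor PPAR alpha beyond oxidation fell in 6 of 18 cases and rose in 2 (0 higher and 4 lower with the covariate, 1 and 4 without replicate 6). Pdk4, the kinase that blocks pyruvate oxidation, ran at 18.3 to 66.1 CPM in ND+veh (median 27.7) and 1.77 to 14.3 CPM in HFD+veh (median 7.76) without overlap (log2 fold change -1.99, SE 0.44, adjusted p = 0.00338). Fgf21, a hormone that the liver releases in fasting, fell from a median of 31.4 to 7.80 CPM (log2 fold change -2.50). Cyp4a10 and Cyp4a14, much used readouts of the receptor, were not called (-0.13 and -0.54, adjusted p = 0.696 and 0.304).

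Cholesterol synthesis and uptake held 4 falls in 26 genes (0 higher and 0 lower with the covariate, 0 and 4 without replicate 6). Fdps fell with a log2 fold change of -0.87 and Pmvk of -0.82, both enzymes of the mevalonate pathway (adjusted p = 0.205 and 0.130 with the covariate).

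Bile acid genes fell in part. Of 15 genes of synthesis 4 fell and 1 rose (0 higher and 3 lower with the covariate, 1 and 4 without replicate 6), and of 20 transport genes 7 fell and 1 rose (1 higher and 4 lower with the covariate, 1 and 5 without replicate 6). Cyp7b1, of the alternative pathway, ran at 108 to 276 CPM in ND+veh (median 144) and 33.1 to 98.0 CPM in HFD+veh (median 48.2) without overlap (log2 fold change -1.52, SE 0.31, adjusted p = 0.00183), and Cyp27a1, which starts that pathway, fell from a median of 639.8 to 205 CPM (log2 fold change -1.51). Cyp7a1, the rate-limiting enzyme of the classical pathway, was not called (log2 fold change -0.63, adjusted p = 0.428), nor was Cyp8b1 (log2 fold change -0.03, adjusted p = 0.952). Beside Slco1a1, the uptake carrier Slco1b2 fell with a log2 fold change of -0.76 and Abcb11, the export pump for bile salts, of -0.81. Slc22a7, an organic anion carrier, rose by 1.34. All 4 kept their calls in both added fits.

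In drug metabolism the P450 families fell more than the conjugation enzymes did. P450 families 1 to 3 summed to 13225 to 19699 CPM in ND+veh (median 17350). In HFD+veh they summed to 7601 to 13602 CPM (median 9542), with some overlap of the groups. The sum weighs abundant members most, such as Cyp2e1, with medians of 4503 CPM in ND+veh and 935 CPM in HFD+veh, and Cyp3a11, given below. In P450 families 1 to 3, 13 of 37 genes fell and 6 rose (3 higher and 11 lower with the covariate, 3 and 13 without replicate 6). The share lower, 35.1%, compares with 9.86% of all genes, and the share higher, 16.2%, with 16.0%. Cyp3a11, the main P450 of drug clearance, ran at 581 to 6279 CPM in ND+veh (median 2104) and 119 to 873 CPM in HFD+veh (median 440.1) (log2 fold change -2.53, SE 0.50, adjusted p = 0.00145). Cyp2c54 fell with a log2 fold change of -2.36, Cyp2c29 of -1.50 and Cyp2d9 of -1.23. These families hold near-identical neighbours, so the split of reads between them is uncertain. In the conjugation enzymes 6 of 46 genes rose and 4 fell (7 higher and 3 lower with the covariate, 5 and 4 without replicate 6). Nnmt, which methylates nicotinamide, rose from a median of 28.5 to 145 CPM (log2 fold change 1.90) and Gsta2, a glutathione transferase, from a median of 23.3 to 68.6 CPM (1.58). Of 16 genes of retinol handling 4 fell, Rdh9 among them, and 1 rose (0 higher and 3 lower with the covariate, 1 and 4 without replicate 6). The aldehyde and alcohol dehydrogenases split evenly, with 4 of 17 higher, Aldh1b1 the largest, and 4 lower (3 higher and 4 lower with the covariate, 3 and 4 without replicate 6).

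Breakdown of amino acids rose. For branched-chain amino acids 7 of 19 genes rose and 12 did not pass (6 higher and 0 lower with the covariate, 5 and 0 without replicate 6). Pcca, a subunit of propionyl-CoA carboxylase, ran at 50.8 to 81.0 CPM in ND+veh (median 62.2) and 82.0 to 139 CPM in HFD+veh (median 109.6) without overlap (log2 fold change 0.73, SE 0.12, adjusted p = 0.000223), and Ppm1k, the phosphatase that activates the branched-chain ketoacid dehydrogenase, rose by 0.63, while its opposing kinase Bckdk was not called (log2 fold change -0.21, adjusted p = 0.268). Among other amino acids 12 of 35 genes rose and 2 fell (15 higher and 1 lower with the covariate, 12 and 2 without replicate 6). Sds ran at 12.8 to 161 CPM in ND+veh (median 63.7) and 163 to 992 CPM in HFD+veh (median 403), Bhmt, which remethylates homocysteine, rose from a median of 1088 to 2833 CPM (log2 fold change 1.52) and Tdo2, which starts tryptophan breakdown, from a median of 1127 to 1973 CPM (0.96). Tat, for tyrosine, was not called (log2 fold change -0.08, adjusted p = 0.866), and Csad fell as given above.

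In the urea cycle and ammonia handling 3 of 12 genes rose and 1 fell (5 higher and 0 lower with the covariate, 3 and 0 without replicate 6). Arg1, which releases urea, ran at 428 to 1089 CPM in ND+veh (median 844) and 932 to 2096 CPM in HFD+veh (median 1384) (log2 fold change 0.77, SE 0.19, adjusted p = 0.00692), and Otc, an earlier step, rose by 0.80. Cps1, the first step, was not called (log2 fold change -0.09, adjusted p = 0.820). Glucose genes rose in 7 of 27 cases and fell in 1 (2 higher and 1 lower with the covariate, 3 and 0 without replicate 6). Hk2 and Hk3, hexokinases that hepatocytes hardly use, rose by 2.85 and 2.64 and were lost with the covariate (adjusted p = 0.0885 and 0.989). Pck1, the control step of glucose synthesis, ran at 411 to 2787 CPM in ND+veh (median 1061) and 846 to 4198 CPM in HFD+veh (median 2756) and was not called (log2 fold change 0.81, adjusted p = 0.0881), nor was G6pc (log2 fold change 0.12, adjusted p = 0.741).

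Genes known as higher in male mouse liver fell, 13 of 30 with the remaining 17 not called (1 higher and 8 lower with the covariate, 0 and 10 without replicate 6). Hsd3b5, a steroid dehydrogenase of male liver, ran at 1.76 to 128 CPM in ND+veh (median 15.0) and 0 to 0.264 CPM in HFD+veh (median 0.0522), and every HFD+veh animal lay below every ND+veh animal (log2 fold change -8.40, SE 1.37, adjusted p = 0.000315). With a median near 0 in HFD+veh the size of this fold change depends on the prior count. Slco1a1 belongs to this group as well. Genes known as higher in female liver rose in 10 of 26 cases and fell in 2 (6 higher and 1 lower with the covariate, 5 and 2 without replicate 6). Atp6v0d2, a proton pump subunit that macrophages also use, rose by 3.45 and was kept in both added fits (adjusted p = 0.0445 and 0.00265), and Ntrk2, a neurotrophin receptor, rose by 0.98 but not with the covariate (adjusted p = 0.178). Cyp2a4 was not called (log2 fold change 0.57, adjusted p = 0.700).

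Growth hormone and insulin readouts changed while the receptors Ghr and Insr were not called. Of 21 genes of the growth hormone and IGF system 6 fell and 3 rose (3 higher and 3 lower with the covariate, 1 and 4 without replicate 6). Cish, a feedback inhibitor like Socs2, fell from a median of 31.8 to 6.76 CPM (log2 fold change -1.86, adjusted p = 0.0907 with the covariate). Igfbp1, a carrier that insulin lowers, ran at 46.5 to 583 CPM in ND+veh (median 164) and 7.77 to 56.2 CPM in HFD+veh (median 24.6) (log2 fold change -2.84, SE 0.58, adjusted p = 0.00216). Igf1 rose from a median of 383 to 626 CPM (0.62), and Ghr, the growth hormone receptor, was not called (log2 fold change -0.11, adjusted p = 0.640). Among 27 hormone receptors and their adaptors 6 rose and 6 fell (4 higher and 3 lower with the covariate, 5 and 5 without replicate 6). Irs2 ran at 20.1 to 57.4 CPM in ND+veh (median 35.3) and 4.77 to 15.7 CPM in HFD+veh (median 8.56), while Insr, the insulin receptor, and Gcgr, the glucagon receptor, were not called (-0.17 and -0.40, adjusted p = 0.370 and 0.220). Lepr, the leptin receptor, fell with a log2 fold change of -1.70. Dio1, which activates thyroid hormone, rose by 0.81.

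Of 35 liver transcription factors and nuclear receptors 7 fell and 28 did not pass (1 higher and 4 lower with the covariate, 0 and 6 without replicate 6). Tbx3 and Onecut1 (-1.69) fell most, the latter without a call in the added fits (adjusted p = 0.180 and 0.0746). Hnf4a, Cebpa, Ppara, Pparg, the bile acid receptor Nr1h4 and the drug sensors Nr1i2 and Nr1i3 were not called, with log2 fold changes from -0.48 to 0.44.

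Protein folding genes fell. In the ER list 17 of 35 genes fell and 18 did not pass (0 higher and 7 lower with the covariate, 0 and 15 without replicate 6). Creld2, an ER protein that rises under folding stress, ran at 34.1 to 173 CPM in ND+veh (median 66.4) and 24.2 to 63.9 CPM in HFD+veh (median 37.4) (log2 fold change -1.04, SE 0.33, adjusted p = 0.0246). Syvn1, the ubiquitin ligase that clears misfolded ER proteins, fell from a median of 126 to 53.9 CPM (log2 fold change -1.12) and Hyou1, an ER chaperone, from a median of 351 to 151 CPM (-1.13). Xbp1, a transcription factor of this response, fell with a log2 fold change of -0.61. With the covariate Creld2, Syvn1, Hyou1 and Xbp1 were not called (adjusted p = 0.271, 0.0902, 0.0631 and 0.128). The ER chaperones Hspa5 and Hsp90b1 were not called (-0.46 and -0.11, adjusted p = 0.139 and 0.684), although their windows hold the ER stress element.

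Targets of ATF4, which answers amino acid shortage, fell in 6 of 22 cases (0 higher and 13 lower with the covariate, 0 and 6 without replicate 6). Trib3, a pseudokinase of this response, fell from a median of 11.1 to 4.58 CPM (log2 fold change -1.99). Of 21 cytosolic and mitochondrial heat shock chaperones 8 fell (0 higher and 6 lower with the covariate, 0 and 7 without replicate 6). Hspb1, a small heat shock protein, ran at 71.1 to 113 CPM in ND+veh (median 104) and 11.05 to 43.2 CPM in HFD+veh (median 26.5) without overlap (log2 fold change -1.87, SE 0.22, adjusted p = 6.18e-06), and Hspa1b fell with a log2 fold change of -1.46. Of 20 aminoacyl tRNA synthetases 9 fell and 1 rose (0 higher and 5 lower with the covariate, 0 and 7 without replicate 6), Cars (-0.74) and Mars (-0.67) without overlap between groups. Of 81 ribosomal protein genes 7 were called lower (0 higher and 5 lower with the covariate, 0 and 10 without replicate 6). This share, 8.64%, is under the 9.86% of all genes. Rpl13a (-0.61) and Rpl8 (-0.57) fell most among those of sufficient level. In translation and ribosome biogenesis 5 of 37 genes fell (0 higher and 3 lower with the covariate, 0 and 7 without replicate 6), Eef2, an elongation factor, at -0.55 and Eif4ebp1, a brake on translation, at -0.54. The proteasome had 4 of 36 genes lower, Psmd3 (-0.58) most, and 1 higher, Psmd10 at 0.54 (0 higher and 1 lower with the covariate, 0 and 6 without replicate 6). Its 11.1% called lower is near the 9.86% of all genes. Autophagy genes fell in 6 of 28 cases and rose in 2 (0 higher and 1 lower with the covariate, 0 and 4 without replicate 6), with Atg13 at -0.63 and Map1lc3a at -0.67.

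Secreted products were tested as 218 genes, of which 52 rose and 27 fell (19 higher and 13 lower with the covariate, 23 and 19 without replicate 6). Albumin had medians of 94541 and 94647 CPM and was not called (log2 fold change 0.12, adjusted p = 0.734). Among 25 genes of albumin and plasma transport 4 rose and 3 fell (2 higher and 1 lower with the covariate, 2 and 3 without replicate 6). At 16% higher and 12% lower, this list is near the 16.0% and 9.86% of all genes. Hpx, which carries free haem, ran at 2569.7 to 4553 CPM in ND+veh (median 3508) and 4988 to 10524 CPM in HFD+veh (median 6175) without overlap (log2 fold change 1.03, SE 0.22, adjusted p = 0.00244). Serpina7, the carrier of thyroid hormone, ran at 137 to 366 CPM in ND+veh (median 178) and 15.5 to 106 CPM in HFD+veh (median 57.2), also without overlap, a log2 fold change of -1.80. Trf, the iron carrier, was not called (log2 fold change -0.13, adjusted p = 0.642).

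Acute phase proteins rose in 18 of 29 cases and fell in 1 (8 higher and 0 lower with the covariate, 11 and 1 without replicate 6). Hp, which binds free haemoglobin, ran at 1724 to 3037 CPM in ND+veh (median 2368) and 2937 to 5610.4 CPM in HFD+veh (median 3551) (log2 fold change 0.76, SE 0.16, adjusted p = 0.00216). Serpina3n rose from a median of 322 to 514 CPM (log2 fold change 0.66). Lcn2, which traps bacterial iron carriers and is also a neutrophil product, rose from a median of 4.63 to 55.7 CPM (3.15, adjusted p = 0.00392 with the covariate). Il1rn, the antagonist of the interleukin-1 receptor, rose by 3.56 without overlap. Saa1 rose by 1.75, but with neither added fit (adjusted p = 0.227 and 0.0526). Hamp, the iron hormone hepcidin, was not called (log2 fold change -0.85, adjusted p = 0.0876).

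Apolipoproteins fell in 5 of 24 cases and rose in 2 (0 higher and 1 lower with the covariate, 0 and 2 without replicate 6). The fall kept with the covariate was Apom, the carrier of sphingosine phosphate on HDL. It ran at 115 to 197 CPM in ND+veh (median 164) and 32.6 to 102 CPM in HFD+veh (median 84.2) without overlap (log2 fold change -1.14, SE 0.21, adjusted p = 0.000837). Apoa1, the main HDL protein, fell from a median of 8239 to 5280.5 CPM (log2 fold change -0.68), and Mttp, which loads lipid on to nascent particles, fell with a log2 fold change of -0.37. Both were lost with the covariate (adjusted p = 0.295 and 0.304). Apob was not called (log2 fold change -0.06, adjusted p = 0.792).

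In complement 6 of 30 genes were called higher and 3 lower (3 higher and 1 lower with the covariate, 2 and 3 without replicate 6). These shares, 20% and 10%, are near the 16.0% and 9.86% of all genes. C9, of the membrane attack complex, rose by 0.79 and C6, another part of it, fell with a log2 fold change of -0.87. C1qb, made by macrophages, rose by 2.30 and not with the covariate (adjusted p = 0.403). C3 was not called (log2 fold change -0.10, adjusted p = 0.713). Of 30 coagulation genes 6 were called higher and 0 lower (1 higher and 1 lower with the covariate, 2 and 0 without replicate 6). The 20% called higher is near the 16.0% of all genes, and the list's median log2 fold change was -0.09. Cpb2, which slows fibrinolysis, rose by 0.54 and the prothrombin gene F2 was not called (log2 fold change -0.18, adjusted p = 0.466). Among the antitrypsin and antichymotrypsin serpins 4 of 15 rose and 1 fell (2 higher and 1 lower with the covariate, 3 and 1 without replicate 6). Serpina3g rose by 2.65, lost with the covariate (adjusted p = 0.111), and Serpina1a was not called (log2 fold change -0.03, adjusted p = 0.933).

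Major urinary proteins, carriers of scent molecules that male livers make in bulk, fell in 6 of 18 cases (1 higher and 1 lower with the covariate, 0 and 2 without replicate 6). Mup3 and Mup20 were not called (-0.43 and -0.46, adjusted p = 0.361 and 0.324). Mup7 and Mup15, at medians of at most 4.00 CPM, fell with a log2 fold change of -3.27 and -2.66. The family is a cluster of near-identical genes, so the split of reads between its members is uncertain.

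Hepatokines and growth factors fell in 10 of 41 cases and rose in 6 (4 higher and 7 lower with the covariate, 4 and 8 without replicate 6). Fgf21 ran at 8.62 to 129 CPM in ND+veh (median 31.4) and 2.83 to 12.1 CPM in HFD+veh (median 7.80), with some overlap of the groups (log2 fold change -2.50, SE 0.47, adjusted p = 0.000910). Lect2, a chemotactic hepatokine, fell from a median of 97.2 to 48.1 CPM (log2 fold change -1.11), Enho, the precursor of adropin, from a median of 17.2 to 3.57 CPM (-1.73) and Inhbc, an activin subunit, from a median of 82.4 to 55.3 CPM (-0.74). The covariate kept Lect2 and lost Enho and Inhbc (adjusted p = 0.0583 and 0.238). Gdf15, a stress hormone, was not called (log2 fold change -0.80, adjusted p = 0.146). Spp1, or osteopontin, ran at 0.397 to 9.29 CPM in ND+veh (median 2.79) and 8.86 to 348 CPM in HFD+veh (median 95.3) (log2 fold change 5.31, SE 0.76, adjusted p = 7.89e-05). Gpnmb, a glycoprotein of lipid-laden macrophages, rose by 4.52, and lost its call with the covariate (adjusted p = 0.535). Both are on the list of recruited macrophage markers, whose sums are given above.

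**Figure D5:**
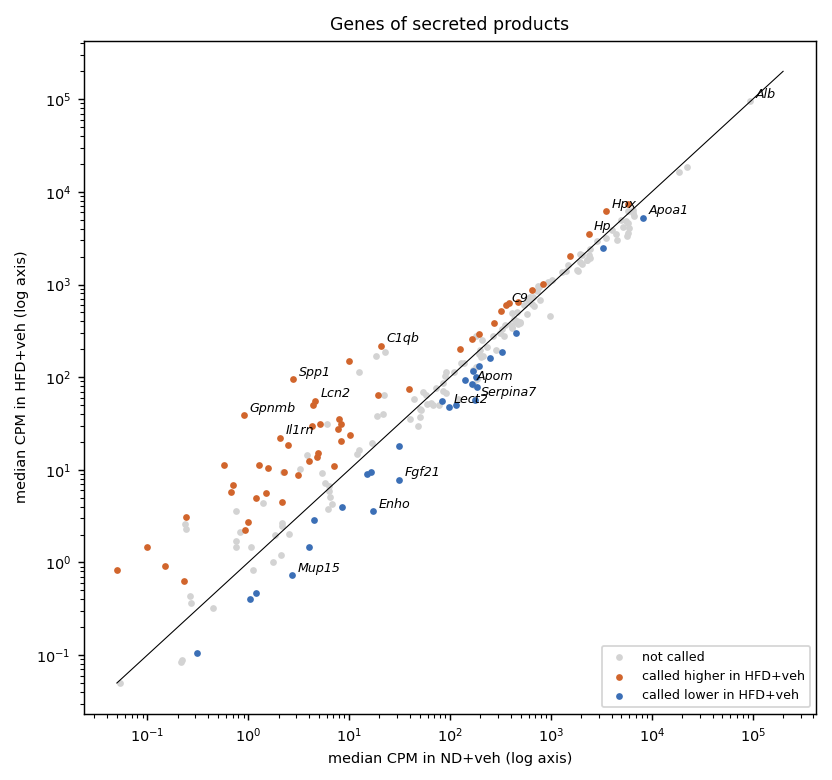
Median CPM in HFD+veh against ND+veh (both log axes, medians under 0.05 drawn at 0.05) of 218 genes of secreted products, with genes called higher in orange, called lower in blue and others in grey, and a line of equal levels. Genes of high CPM lie close to the line, Hpx, Hp and Apoa1 among those called, and the large rises are in genes of low level in ND+veh such as Spp1 and Lcn2.

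Interferon-stimulated genes rose in 53 of 60 cases, the highest share of any list with 10 or more genes tested, with a median log2 fold change of 1.93. It was 13 higher and 0 lower with the covariate and 38 and 0 without replicate 6. Ifit1 (ENSMUSG00000034459.8, chromosome 19, 34640871 to 34650009), which binds foreign RNA, ran at 3.01 to 90.3 CPM in ND+veh (median 5.69) and 17.2 to 244 CPM in HFD+veh (median 136), and the groups overlapped (log2 fold change 2.86, SE 0.68, adjusted p = 0.00582). Isg15, a ubiquitin-like modifier, ran at 3.31 to 95.4 CPM in ND+veh (median 6.63) and 12.7 to 114 CPM in HFD+veh (median 74.5) (log2 fold change 1.75, SE 0.63, adjusted p = 0.0439). ND+veh replicate 4 was the highest ND+veh animal for both, at 90.3 and 95.4 CPM. Irf7, the transcription factor that amplifies this response, rose by 1.73, Gbp2, a guanylate-binding protein, by 2.67 and Ifit2 by 3.63, and none of these 5 was called with the covariate (adjusted p = 0.0679, 0.450, 0.253, 0.229 and 0.450).

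Of 24 genes of MHC class I presentation and the immunoproteasome 11 rose and 1 fell (4 higher and 1 lower with the covariate, 8 and 1 without replicate 6). Psmb8, an immunoproteasome subunit, ran at 16.2 to 41.8 CPM in ND+veh (median 22.5) and 34.4 to 68.7 CPM in HFD+veh (median 60.3) (log2 fold change 1.09, SE 0.20, adjusted p = 0.000750), and Nlrc5, the transactivator of class I genes, rose from a median of 11.1 to 30.9 CPM (log2 fold change 1.07). Both were kept with the covariate (adjusted p = 0.0111 and 0.0332). H2-K1, a classical class I molecule, was not called (log2 fold change 0.13, adjusted p = 0.424). MHC class II genes, used by macrophages and B cells, rose in 8 of 9 cases, H2-Aa by 2.70, and edgeR called 0 of them in either added fit. Chemokines and cytokines rose in 13 of 27 cases and fell in 1 (2 higher and 1 lower with the covariate, 4 and 1 without replicate 6). Ccl6 rose by 3.13 and Il1b by 2.49, neither called in the added fits, and Cxcl10 was not called (log2 fold change 0.78, adjusted p = 0.390). Of 22 genes of NF-kB and its targets 4 rose and 2 fell (1 higher and 1 lower with the covariate, 1 and 1 without replicate 6). The shares, 18.2% and 9.09%, are near the 16.0% and 9.86% of all genes. Vcam1, an adhesion molecule of endothelium, rose by 2.68, lost in both added fits (adjusted p = 0.251 and 0.281), and Nfkbia was not called (log2 fold change -0.05, adjusted p = 0.874). H2-Aa and Ccl6 were highest in HFD+veh replicates 3 to 6, the animals with the highest immune marker scores. Ifit1 did not follow the score in each animal. It ran at 17.2 CPM in HFD+veh replicate 5 (score 1.10) and at 244 CPM in replicate 7 (score 0.60). The part of macrophages, neutrophils and lymphocytes in these lists was not tested.

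Lysosomal genes rose in 18 of 34 cases and fell in 3 (4 higher and 1 lower with the covariate, 13 and 3 without replicate 6). Ctsc ran at 46.3 to 175 CPM in ND+veh (median 81.3) and 192 to 1071 CPM in HFD+veh (median 324) (log2 fold change 2.14, SE 0.41, adjusted p = 0.00109). Ctsb and Ctsd, proteases of all lysosomes, rose by 1.09 and 0.80 and lost their calls with the covariate (adjusted p = 0.106 and 0.606). Lipa, the acid lipase, was not called (log2 fold change 0.03, adjusted p = 0.918).

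Few nuclear genes of the respiratory chain were called. For complexes II to V edgeR called 0 of 42, with 3 higher and 0 lower at an unadjusted p under 0.05, and DESeq2, voom and both added fits called 0. For complex I 3 of 45 rose (1 higher and 0 lower with the covariate, 1 and 0 without replicate 6), Ndufaf7 (0.38) and Ndufv2 (0.36) most. Of 12 messages of the mitochondrial genome 7 rose (0 higher and 0 lower with the covariate, 1 and 0 without replicate 6). The share of such messages also moves with polyA selection and cell damage, which were not tested. In iron and haem handling 6 of 26 genes rose and 6 fell (2 higher and 3 lower with the covariate, 3 and 6 without replicate 6). Tfrc, the transferrin receptor, ran at 13.8 to 40.1 CPM in ND+veh (median 22.2) and 44.3 to 162 CPM in HFD+veh (median 55.6) without overlap (log2 fold change 1.61, SE 0.27, adjusted p = 0.000355). Targets of NRF2 and glutathione genes rose in 3 of 34 cases and fell in 3 (1 higher and 2 lower with the covariate, 3 and 2 without replicate 6). This was 8.82% each way, under the 16.0% and 9.86% of all genes. Osgin1 fell with a log2 fold change of -1.46, and Gclc and Txnrd1 were not called (-0.19 and -0.21, adjusted p = 0.579 and 0.322).

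Circadian clock genes moved in both directions, 5 of 17 higher and 4 lower (8 higher and 5 lower with the covariate, 5 and 3 without replicate 6). Dbp, an output of the clock, ran at 0.664 to 21.6 CPM in ND+veh (median 1.52) and 1.36 to 106 CPM in HFD+veh (median 12.5) (log2 fold change 2.95, SE 0.96, adjusted p = 0.0284), and Per3, a repressor, rose from a median of 1.20 to 4.68 CPM (log2 fold change 2.78). Arntl and Npas2, of the activating arm, fell with a log2 fold change of -1.06 and -2.34, and Nfil3, which opposes Dbp, of -1.25. Per1, Per2 and Nr1d1 were not called (0.22, 0.53 and -0.02, adjusted p = 0.717, 0.430 and 0.981). These genes follow the time of day, and the hour of collection of each animal is not given in the sources used here.

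Of 36 genes of the cell cycle and DNA replication 9 rose, Mcm6 (1.55) and Mcm4 (1.20) most among those of sufficient level (1 higher and 1 lower with the covariate, 3 and 0 without replicate 6), and Mki67, a marker of dividing cells, was not called (log2 fold change 1.05, adjusted p = 0.348). Of 27 senescence and p53 targets 4 were called higher and 2 lower (0 higher and 4 lower with the covariate, 1 and 2 without replicate 6). These shares, 14.8% and 7.41%, are under the 16.0% and 9.86% of all genes. Cdkn2a, which encodes p16, rose by 2.15 at medians of 0.348 and 1.82 CPM, lost in both added fits (adjusted p = 0.980 and 0.0647), and Cdkn1a, which encodes p21, was not called (log2 fold change -0.65, adjusted p = 0.398). Oncofetal and liver tumour genes rose in 13 of 23 cases (2 higher and 0 lower with the covariate, 9 and 0 without replicate 6). Lgals3, a lectin that macrophages make, rose by 3.02, Sox9, a factor of bile duct cells, by 1.15, and Afp, the fetal albumin, was not called (log2 fold change 0.17, adjusted p = 0.586).

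Of the 143 genes named here as called, 111 stayed called whichever of the 15 libraries was left out. The other 32 lost their call in at least 1 of these fits. Leaving out HFD+veh replicate 1 gave the highest adjusted p, 0.0588 for Dbp and 0.0691 for Slc22a7. Leaving out HFD+veh replicate 3 gave the highest adjusted p, 0.0765 for Cdkn2a. Leaving out HFD+veh replicate 4 gave the highest adjusted p, 0.156 for Cidea, 0.0567 for Irf7, 0.0903 for Isg15 and 0.0787 for Plin4. Leaving out HFD+veh replicate 6 gave the highest adjusted p, 0.0547 for Arntl, 0.0916 for C1qb, 0.0957 for Ccl6, 0.0665 for Cpb2, 0.0716 for Cyp2b9, 0.184 for H2-Aa, 0.0519 for Hk3, 0.0510 for Igf1, 0.0846 for Il1b, 0.141 for Lpl, 0.137 for Mcm6, 0.0661 for Mup7, 0.129 for Ndufv2, 0.0746 for Onecut1, 0.0660 for Psmd10, 0.0526 for Saa1 and 0.281 for Vcam1. Leaving out HFD+veh replicate 7 gave the highest adjusted p, 0.0574 for Sox9. Leaving out ND+veh replicate 1 gave the highest adjusted p, 0.0743 for Ntrk2. Leaving out ND+veh replicate 2 gave the highest adjusted p, 0.0641 for Creld2, 0.0578 for Lgr5 and 0.0520 for Mup15. Leaving out ND+veh replicate 6 gave the highest adjusted p, 0.0723 for Apoa1, 0.0559 for Eif4ebp1 and 0.0900 for Lepr. With the covariate, calls not marked above were also lost for C6 (0.0964), Map1lc3a (0.282), Mcm4 (0.150), Mcm6 (0.612), Lgals3 (0.630), Osgin1 (0.0847), Psmd3 (0.139), Psmd10 (0.321), Rpl13a (0.167), Rpl8 (0.0505), Ndufv2 (0.313), Eif4ebp1 (0.135), Cpb2 (0.200), Mup7 (0.239) and Mup15 (0.350), the values being edgeR's adjusted p.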

How the data were processed

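RNA of perfused hepatocytes was sequenced from 24 animals, and groups and replicate numbers were read from the sample labels. The authors aligned reads with STAR to mm10 with Gencode M23 and filtered them with SAMtools. The deposited counts are whole reads per gene from HTSeq 0.11.2. Strand use is not stated, which leaves antisense and overlapping genes uncertain. FPKM values as deposited, per kilobase and per M mapped fragments, came from the authors' Cufflinks run and were used for no value printed here. Positions are those of Gencode M21 on GRCm38, which held 55240 of the 55421 gene identifiers.

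All 24 libraries were fitted in edgeR 4.0.16 (R 4.3.3) as 3 groups without covariates, with filterByExpr, TMM, estimateDisp and the robust quasi-likelihood fit. P-values were adjusted over 13847 genes by the Benjamini-Hochberg method, with a threshold of 0.05. SE is the absolute log2 fold change over the square root of F. Log2 CPM used a prior count of 2. Replicates are separate animals by the study's methods. No 2 libraries of a group agreed within sampling noise (lowest chi-square per degree of freedom 11.3 in 49 pairs). On simulated counts for 13847 genes of which 200 were set apart by 1 on the log2 scale in the 2 vehicle groups, edgeR recovered 125, and 3.10% of its calls were false. Alternatives were DESeq2 1.42.0, limma 3.58.1 voom, other scalings and filters, fewer libraries, a replicate block and the immune marker score as a covariate.

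The 65 gene lists (1538 symbols, 1537 found, 1442 tested) and the genes named were chosen with earlier results of these data known. Named were the 12 largest rises and 12 largest falls among called genes with a mean log2 CPM of at least 3 and no overlap of the groups, predicted names skipped, a preset set of members in each list, and the 2 called members of each list with the largest change at a mean log2 CPM of at least 1. The text prints 191 genes, of which 6 were chosen after their values were seen, and some members named by this rule are not reported here. Promoter windows and their motif matches came from RefSeq on GRCm38.p6.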

Additional observations from a re-analysis of the deposited data

Results flagged for a closer look

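In 39 of 408 groups of values examined (depth, scaling, marker lists and the log2 CPM of each printed gene, each in ND+veh and in HFD+veh) the highest or lowest library lay far from the rest of its group. Chance gives about 1 in 20, here 20.4. Values are log2 CPM unless another unit is named, and genes of 1 library are not independent of each other. ND+veh replicate 4 was the lowest of its group for Abcb11 (9.22), Alb (15.36), Apoa1 (11.91), Cyp27a1 (8.21), Cyp2c29 (7.46), Elovl3 (6.04), Fdps (5.61), Ghr (7.90), Mttp (8.17), Mup3 (9.08), Pmvk (3.48), Scd1 (12.25), Serpina1a (9.55) and Slco1a1 (6.58). ND+veh replicate 4 was the highest of its group for Ifit1 (6.50), Isg15 (6.58), Nlrc5 (4.88) and Txnrd1 (8.26). HFD+veh replicate 6 was the lowest of its group for Crat (4.77), Eif4ebp1 (3.38), Gcgr (5.74), Map1lc3a (2.68), Psmd3 (5.04) and Trib3 (0.83). HFD+veh replicate 6 was the highest of its group for Ctsc (10.06) and Tfrc (7.34). ND+veh replicate 3 was the lowest of its group for Arntl (3.89) and Npas2 (1.36). ND+veh replicate 8 was the lowest of its group for Psmd3 (6.33). ND+veh replicate 8 was the highest of its group for Mup20 (13.63) and Serpina7 (8.52). HFD+veh replicate 7 had 7.87 for Elovl3, against 4.54 to 5.39 in the rest of its group. HFD+veh replicate 1 had 0.90 for Pdk4, against 2.64 to 3.85 in the rest of its group. ND+veh replicate 1 had 2.74 for Saa1, against 4.09 to 5.28 in the rest of its group. HFD+veh replicate 2 had 10.13 for Slco1b2, against 9.27 to 9.61 in the rest of its group. ND+veh replicate 4 also had a scaling factor of 1.295 (others 0.933 to 1.081), a mean log2 CPM of hepatocyte markers of 10.81 and of cholangiocyte markers of 4.07. HFD+veh replicate 3 had the lowest total of HFD+veh, 19.85 M counts.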

How the results depend on the processing

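The edgeR count of 3584 called genes, 2218 higher and 1366 lower, held within 1.5 times under DESeq2, other scalings and the filters tried. It moved further with voom (1866, 1061 higher and 805 lower), with only HFD+veh and ND+veh in the fit (2333, 1433 and 900), when the immune marker score was a covariate (1277, 594 and 683), without HFD+veh replicate 6 and ND+veh replicate 4 together (2300, 1179 higher), and where a change of at least 1 on the log2 scale was also required (1585). The excess of higher over lower genes turned with the covariate and without HFD+veh replicate 6 (988 and 1118). Leaving out each library in turn gave 2106 to 4479 calls, 988 to 2755 higher and 1097 to 1724 lower. Beside HFD+veh replicate 6, leaving out HFD+veh replicate 3 (1412 higher) or ND+veh replicate 1 (1393 higher) moved the higher genes by over 1.5 times. Of the 2218 higher and 1366 lower genes, 441 and 420 were called in the same direction with the covariate, and 961 and 1051 without HFD+veh replicate 6. Among the 143 named genes that were called, 76 were called in all alternatives, 55 lost the call with the covariate and 32 with voom. With the covariate the estimate turned for C1qb (-0.33), Ccl6 (-0.35), H2-Aa (-0.48), Hk3 (-0.0085), Il1b (-0.39), Lpl (-0.54) and Vcam1 (-0.58). The covariate is made of immune markers, and for the rest the cause was not tested. Replicate numbers are shared between groups but belong to different animals, so they were not taken to pair the samples. After removal of group means, same-numbered libraries 1 to 7 had correlations of 0.71, 0.64, -0.42, 0.56, 0.06, 0.46 and 0.12. Differently numbered libraries were not compared, so these values do not settle whether same-numbered libraries share a step of processing. The replicate block fit called 2461 genes, 1436 higher and 1025 lower, and 23 of the 143 named genes lost the call. Depth limits low genes. Of the named genes that were called, 15 had a median under 2 CPM in at least 1 group, Dbp, Cidea, Hsd3b5, Gpnmb and Cdkn2a among them.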
